A study of Mus musculus with 9 samples.

Results

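The genes described here take fatty acids into the heart cell, activate them and break them down by beta-oxidation. They were chosen by name, with earlier results of these data known, as a list of 40 genes ordered by pathway step. Each was read at the probe set with a single gene symbol that had the highest mean over all 9 arrays. Of the 40 genes 37 had such a probe set, out of 19935 genes on the array. Cpt1b is measured only by a probe set with several symbols, and Acsl1 and Ucp2 have no probe set in the annotation used, so these 3 were left out. Gene expression was measured with Affymetrix arrays in right ventricular and septal tissue dissected from adult mice of a mixed C57BL/6 background, with 1 array per heart. The 4 Ezh2-deficient hearts carried the genotype Ezh2f/f;Mef2cAHF::Cre, and the 5 wild-type hearts carried Ezh2f/f without Cre. Titles of wild-type samples give f/wt instead, and which of the labels holds was not settled here. All values are on the log2 scale, and each difference is the Ezh2-deficient mean minus the wild-type mean.

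Ezh2 is a histone methyltransferase and the catalytic part of a Polycomb complex that keeps genes silent. The Cre transgene is under an enhancer of Mef2c that works in the anterior heart field, a group of embryonic progenitors that build the right side and septum of the ventricles. Cells of other lineages in the tissue keep Ezh2, and all Ezh2-deficient hearts but no wild-type heart carried Cre, so loss of Ezh2 and presence of Cre cannot be told apart. By its title the series asks about repression of progenitor genes by Ezh2 and its role in the heart after birth.

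The adult heart draws most of its energy from long-chain fatty acids. Lipoprotein lipase frees them from circulating lipids, membrane and binding proteins carry them inward, and acyl-CoA synthetases activate them. The carnitine shuttle then moves the acyl groups into mitochondria, where each turn of beta-oxidation uses a dehydrogenase, a hydratase, a second dehydrogenase and a thiolase. Unsaturated fatty acids need auxiliary isomerases and a reductase, and electrons of the first dehydrogenase pass through the electron transfer flavoprotein to the respiratory chain. Many of these genes are known targets of the PPAR and ERR nuclear receptors.

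Promoter sequences are shown for 5 of the genes, because the pathway is known for control by nuclear receptors. Whether such control has a part in the differences was not tested. The sequences are those of RefSeq on GRCm38.p6, each with 250 bases before and 50 after a gene's start, written 5′ to 3′ on the gene's own strand. Of the 37 measured genes 32 matched, with 36 windows. Ech1 (chr7:28825088-28825387, plus strand) and Eci1 (chr17:24426433-24426732, plus strand) are auxiliary enzymes with some of the most distinct differences. Hadha (chr5:30154931-30155230, minus strand) encodes a subunit of the trifunctional protein and shares its promoter region with Hadhb. Acadvl (chr11:70015379-70015678, minus strand) is the first dehydrogenase for very long chains and holds a nuclear receptor motif. Acsl6 (chr11:54303574-54303873, plus strand), an acyl-CoA synthetase that did not read lower, holds the only ERR-type match. Acsl6 has several windows, and this one is shown because it holds the match. Its other windows held no match to either motif. Capitals mark matches to AGGTCA or TCAAGGTCA on either strand.
Ech1: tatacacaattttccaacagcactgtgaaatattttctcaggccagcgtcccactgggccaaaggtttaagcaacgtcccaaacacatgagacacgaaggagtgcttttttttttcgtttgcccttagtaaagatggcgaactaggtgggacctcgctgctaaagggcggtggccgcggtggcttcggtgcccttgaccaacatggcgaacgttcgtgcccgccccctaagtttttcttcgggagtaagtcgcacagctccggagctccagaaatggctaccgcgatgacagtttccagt
Eci1: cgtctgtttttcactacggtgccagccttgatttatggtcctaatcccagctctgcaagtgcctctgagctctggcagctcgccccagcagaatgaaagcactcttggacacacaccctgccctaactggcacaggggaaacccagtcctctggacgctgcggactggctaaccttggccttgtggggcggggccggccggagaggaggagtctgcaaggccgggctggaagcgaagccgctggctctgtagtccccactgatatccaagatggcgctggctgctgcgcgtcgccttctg
Hadha: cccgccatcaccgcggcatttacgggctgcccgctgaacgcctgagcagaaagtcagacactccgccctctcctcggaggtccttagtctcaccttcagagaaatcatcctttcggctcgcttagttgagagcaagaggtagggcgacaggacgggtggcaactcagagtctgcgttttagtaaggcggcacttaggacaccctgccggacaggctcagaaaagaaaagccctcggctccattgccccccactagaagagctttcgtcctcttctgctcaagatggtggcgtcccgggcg
Acadvl: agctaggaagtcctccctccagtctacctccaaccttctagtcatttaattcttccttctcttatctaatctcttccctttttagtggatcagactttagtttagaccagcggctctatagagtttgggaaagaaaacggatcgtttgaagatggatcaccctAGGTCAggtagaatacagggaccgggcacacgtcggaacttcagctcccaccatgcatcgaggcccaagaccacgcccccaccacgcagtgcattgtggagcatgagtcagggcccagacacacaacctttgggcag
Acsl6: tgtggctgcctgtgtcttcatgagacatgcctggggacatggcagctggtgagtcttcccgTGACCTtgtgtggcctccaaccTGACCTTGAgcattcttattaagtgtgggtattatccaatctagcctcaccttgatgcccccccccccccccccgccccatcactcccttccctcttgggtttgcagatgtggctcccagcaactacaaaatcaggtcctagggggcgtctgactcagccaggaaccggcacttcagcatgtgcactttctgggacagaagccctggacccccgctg

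The nuclear receptor core motif AGGTCA, searched on both strands, occurred in 8 of the 36 windows of measured fatty acid genes (22.2%) and in 16.3% of all 32851 promoter windows. The genes with a match were Acacb, Acadm, Acadvl, Acsl6, Cd36, Cpt1a, Echs1 and Ucp3. In the Acadvl window the match began 87 bases before the start. The ERR-type motif TCAAGGTCA, which contains the core motif, was found in 1 of the 36 windows, a window of Acsl6, and in 0.423% of all windows. A direct repeat of AGGTCA with 1 base between the copies, the PPAR type, was found in 0 of the 36 windows and in 0.0396% of all windows. Only exact matches inside the windows were counted. With so low a share over all windows, 0 of 36 cannot show that these genes lack such sites. The Hadha and Hadhb windows lie on opposite strands of chromosome 5 and share 228 bases, with starts 273 bases apart that point away from each other. The median GC content was 60.5% over the windows of fatty acid genes and 52.7% over all windows, with a median of 16 and 7 CpG dinucleotides per window.

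Over the whole table array medians lay between 7.19 and 7.24, and Pearson's r between arrays lay between 0.9897 and 0.9973. Ezh2 itself read 8.94, 8.74, 8.98 and 8.86 in Ezh2-deficient hearts 1 to 4, against 8.89, 8.60, 8.68, 8.80 and 8.66 in wild-type hearts 1 to 5. The difference of 0.15 (SE 0.07, limma adjusted p = 0.485) did not pass, so the array does not check the genotype labels, and where the probes lie relative to the deleted part is not given in the sources used here. Ventricular markers were abundant, with Myl2 at 13.70 ± 0.042 (SD, n = 4) in Ezh2-deficient and 13.76 ± 0.036 (SD, n = 5) in wild-type hearts. The atrial light chain Myl7 varied widely within both groups, at 9.999 ± 1.7 in Ezh2-deficient and 9.93 ± 1.7 in wild-type hearts. By 3 Y-linked genes, 2 Ezh2-deficient hearts and 1 wild-type heart came from females. The arrays of wild-type hearts 4 and 5 and of Ezh2-deficient heart 3 were set apart in earlier work on these data. That was not assessed again here, and counts without these arrays are given below.

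Most fatty acid genes read modestly lower in Ezh2-deficient hearts. Of the 37 measured genes 34 had a lower mean, where 51.6% of all genes did, and the median difference was -0.22, or 85.8% of the wild-type level, against -0.003 over all genes. None passed on its own: by limma with Benjamini-Hochberg adjustment over all 28815 probe sets 0 of 37 had an adjusted p under 0.05, where 10 probe sets (0.0347%) did, 3 of them lower (0.0104%). The lowest adjusted p was 0.12, that of Mlycd. At an unadjusted p under 0.05, 26 of the 37 genes were lower, against 5.78% of all genes, and 2 were higher, against 5.77%. In 17 of the 37 genes every Ezh2-deficient heart read below every wild-type heart, which held for 2.19% of all genes. The opposite separation occurred in 0 of the 37 genes and in 2.1% of all genes. Because the list was chosen with earlier results of these data known, these counts are a description, and no test was made over the list.

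**Figure D1:**
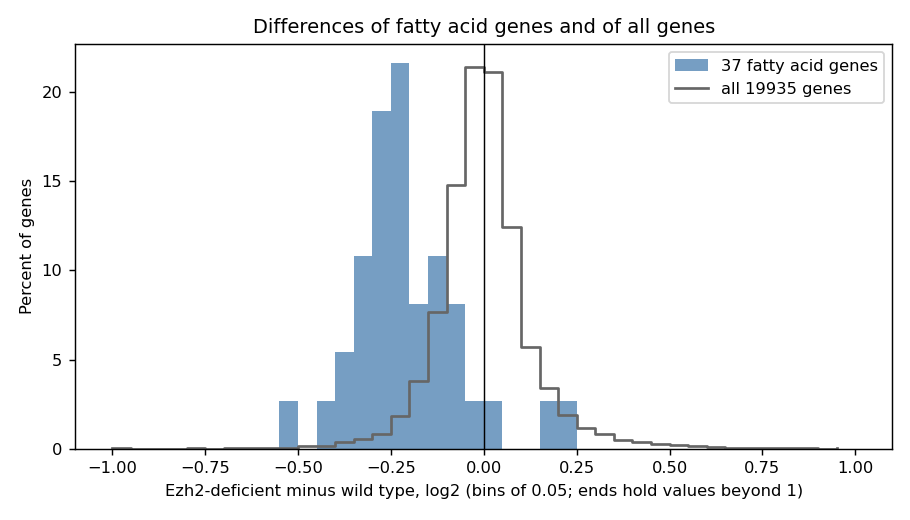
The bars give the percent of the 37 fatty acid genes and the line the percent of all 19935 genes in each bin of the difference, in log2 units and taken as Ezh2-deficient minus wild type. The line is centred near 0, while the bars are centred near the median of -0.22 and only 3 genes lie above 0.

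Abundance differs between fatty acid genes and most others on the array. In wild-type hearts 26 of the 37 read at or above the 95th percentile of all genes, and 2 read below the 50th. Genes with a mean of at least 10 were therefore taken as a second background. Among 1748 such genes 62.5% had a lower mean, 17.1% were lower at an unadjusted p under 0.05 and 8.58% were lower without overlap. Their median difference was -0.04, against -0.22 for the 37 fatty acid genes, not all of which are this abundant.

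**Figure D2:**
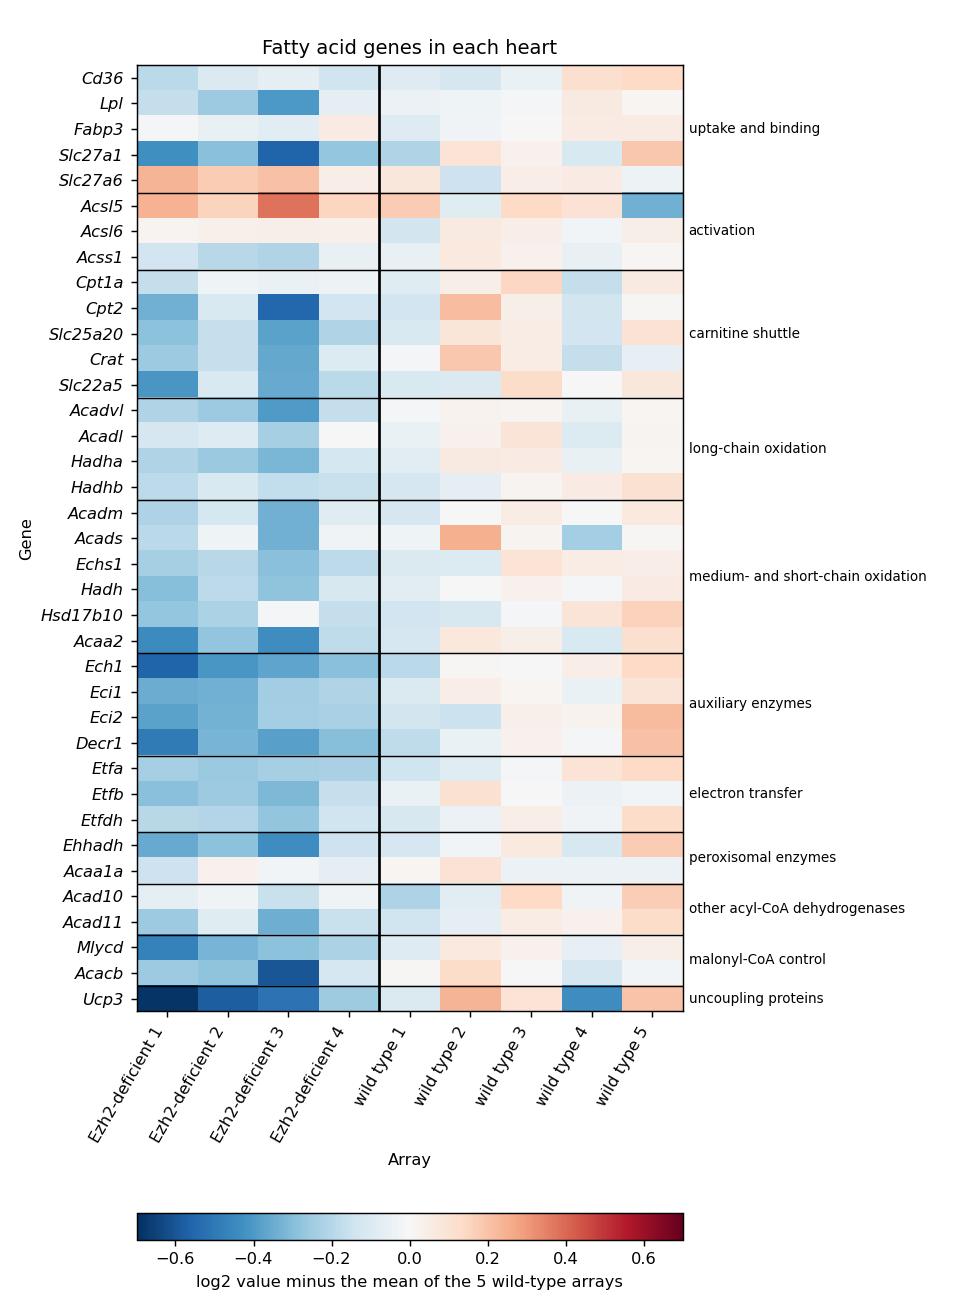
Each cell is the log2 value of a gene (rows, by pathway step) in an array (columns) minus the mean of the 5 wild-type arrays. In the Ezh2-deficient columns 31 genes lie below 0 in all 4 hearts and 3 genes (Fabp3, Acadl and Acaa1a) in 3 of 4, while Slc27a6, Acsl5 and Acsl6 lie above 0 in all 4. The share of all genes below 0 in all 4 hearts was not counted, and 51.6% of all genes had a lower mean.

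All 4 Ezh2-deficient hearts shared the lower level, to different degrees. Relative to the wild-type mean, the median over the 37 genes was -0.23, -0.19, -0.29 and -0.14 in Ezh2-deficient hearts 1 to 4, against -0.10, 0.01, 0.03, -0.02 and 0.06 in wild-type hearts 1 to 5. The lowest was Ezh2-deficient heart 3, and Ezh2-deficient heart 4 lay nearest to wild type. Among the Ezh2-deficient hearts, heart 3 had the lowest value in 19 of the 37 genes and heart 4 the highest in 24. Without Ezh2-deficient heart 3, 33 genes had a lower mean, 25 were lower at an unadjusted p under 0.05 (4.65% of all genes) and 18 were lower without overlap (3.58% of all genes). Without wild-type hearts 4 and 5, 33 genes had a lower mean, 23 were lower at that p (4.59% of all genes) and 20 were lower without overlap (5.34% of all genes). Without all 3 hearts the lower means numbered 32, with 22 genes lower at that p (5.1% of all genes) and 21 lower without overlap (7.92% of all genes).

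No gene of the cell type marker lists passed by limma, and the lowest adjusted p among them was 0.0554, for a fibroblast marker. Averaged over a list, fibroblast and endothelial levels did not overlap between the groups, while the other lists overlapped. By single gene, 3 of 15 fibroblast and 2 of 14 endothelial markers were higher without overlap, as were 2.1% of all genes. Of the 10 ventricular markers 2 were lower without overlap, as were 2.19% of all genes. Differences of the fibroblast markers were uneven, from 0.12 for Dcn to 1.37 for Postn. For the counts that follow, 51.6% of all genes had a lower mean. Among genes with a mean of at least 10 the share was 62.5%, with a median difference of -0.04. Mean log2 levels of 15 fibroblast markers were 10.75 to 10.995 in Ezh2-deficient and 10.04 to 10.65 in wild-type hearts, and 15 of 15 had a higher mean. For 14 endothelial markers the ranges were 10.42 to 10.50 and 9.94 to 10.41, again with all 14 higher in mean. Ventricular cardiomyocyte markers ranged from 13.40 to 13.63 in Ezh2-deficient and from 13.58 to 13.68 in wild-type hearts, with 9 of 10 lower in mean and a median difference of -0.07. The lowest of those values, 13.40, was that of Ezh2-deficient heart 3, in which 4 blood markers averaged 8.94, against 7.48 to 8.08 in the other 8 hearts. Macrophage markers had a higher mean in 10 of 10, and spanned 8.93 to 9.28 in Ezh2-deficient and 8.59 to 9.05 in wild-type hearts. The 7 adipocyte markers spanned 6.45 to 7.13 and 6.55 to 6.65 in those groups, with 5 of 7 higher in mean. Atrial markers spanned 8.67 to 10.32 and 7.81 to 9.90, with 4 of 5 higher. The part of these marker levels in the fatty acid values was not tested. In such bulk tissue, fewer cardiomyocytes and less fatty acid RNA per cardiomyocyte cannot be told apart.

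**Figure D3:**
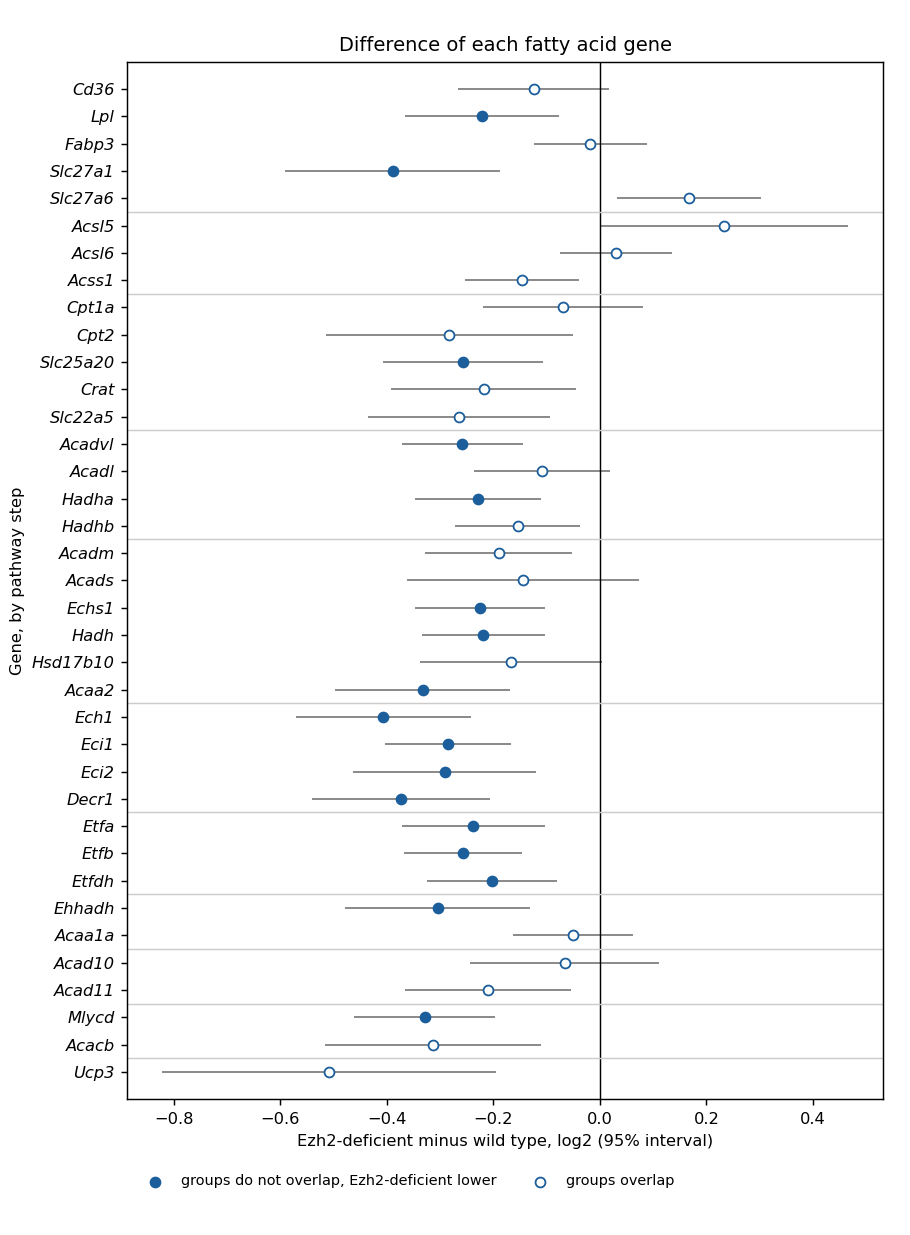
Points give the difference of each gene, in log2 units (Ezh2-deficient minus wild type), with its 95% interval from limma. The 17 filled points are genes whose groups do not overlap, with Ezh2-deficient lower, as in 2.19% of all genes. They include all 4 auxiliary enzymes and all 3 electron transfer genes.

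The uptake genes were mixed. Slc27a1, a fatty acid transport protein, read 10.15, 10.28, 10.02 and 10.30 in Ezh2-deficient hearts, against 10.37, 10.67, 10.61, 10.47 and 10.77 in wild-type hearts. All Ezh2-deficient values lay below the wild-type ones, and the difference was -0.39 (SE 0.09, limma adjusted p = 0.178). Lpl, the lipase that frees fatty acids from lipoproteins, read 13.11, 13.02, 12.87 and 13.21 in Ezh2-deficient hearts, against 13.23, 13.24, 13.27, 13.34 and 13.29 in wild-type hearts. These groups were also separate, by a margin of 0.02 between the nearest hearts, with a difference of -0.22 (SE 0.06, limma adjusted p = 0.272).

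The other 3 uptake genes overlapped between the groups. Cd36, the fatty acid translocase of the plasma membrane, differed by -0.12 with a 95% interval of -0.27 to 0.02. Fabp3, the heart-type fatty acid binding protein, differed by -0.02 with an interval of -0.12 to 0.09, and its second probe set differed by -0.03. Both are among the most abundant transcripts on the array. Slc27a6, a transporter of the same family as Slc27a1, read 5.89, 5.83, 5.86 and 5.69 in Ezh2-deficient hearts, against 5.73, 5.50, 5.69, 5.71 and 5.61 in wild-type hearts. It was higher by 0.17 (SE 0.06, limma adjusted p = 0.37) and lay at the 17.3 percentile of all genes in wild-type hearts. The median of the 5 uptake genes was -0.12, and it was -0.04 without wild-type hearts 4 and 5, in which Cd36 was highest (13.49 and 13.51).

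Activation was the step without a lower median. Acsl5, a long-chain acyl-CoA synthetase, read 8.997, 8.91, 9.13 and 8.90 in Ezh2-deficient hearts, against 8.93, 8.67, 8.89, 8.85 and 8.42 in wild-type hearts. Only wild-type heart 1 lay within the Ezh2-deficient range, and the difference was 0.23 (SE 0.10, limma adjusted p = 0.467). Acsl6 read 7.43, 7.45, 7.46 and 7.45 in Ezh2-deficient hearts, against 7.29, 7.48, 7.46, 7.39 and 7.46 in wild-type hearts. Its groups overlapped throughout (difference 0.03, interval -0.07 to 0.14). Acss1, the mitochondrial acetyl-CoA synthetase, which acts on acetate and not on long chains, read 11.36, 11.30, 11.28 and 11.44 in Ezh2-deficient hearts, against 11.44, 11.56, 11.52, 11.44 and 11.49 in wild-type hearts. The groups met at 11.44, and the difference was -0.15 (SE 0.05, limma adjusted p = 0.321). With Acsl1 left out, the step rests on 3 genes, 2 of them higher in mean, and its median was 0.03.

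All 5 measured genes of the carnitine shuttle had a lower mean. Slc25a20, the translocase that exchanges acylcarnitine for carnitine across the inner mitochondrial membrane, read 11.54, 11.67, 11.46 and 11.62 in Ezh2-deficient hearts, against 11.72, 11.91, 11.88, 11.69 and 11.93 in wild-type hearts. Its groups did not overlap (difference -0.26, SE 0.07, limma adjusted p = 0.225). Slc22a5, the plasma membrane carnitine transporter, read 8.10, 8.40, 8.15 and 8.31 in Ezh2-deficient hearts, against 8.40, 8.41, 8.63, 8.50 and 8.59 in wild-type hearts. The groups touched at 8.40, and the difference was -0.26 (SE 0.08, limma adjusted p = 0.267). Cpt2, which returns acyl groups to CoA inside mitochondria, differed by -0.28, and Crat, the carnitine acetyltransferase, by -0.22. Cpt1a, the liver form of the outer membrane transferase, differed least, by -0.07 (interval -0.22 to 0.08). The muscle form Cpt1b was not analysed here, so a comparison of the 2 isoforms could not be made.

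The 4 genes of long-chain oxidation were lower in mean. Acadvl, the very long-chain dehydrogenase, read 11.89, 11.85, 11.71 and 11.94 in Ezh2-deficient hearts, against 12.10, 12.13, 12.13, 12.05 and 12.12 in wild-type hearts. The wild-type values were closely grouped and all lay above the Ezh2-deficient ones (difference -0.26, SE 0.05, limma adjusted p = 0.129). Hadha, the alpha subunit of the trifunctional protein, read 12.77, 12.73, 12.66 and 12.86 in Ezh2-deficient hearts, against 12.91, 13.05, 13.04, 12.93 and 12.997 in wild-type hearts. It too was without overlap (difference -0.23, SE 0.05, limma adjusted p = 0.177). Its partner Hadhb, which starts on the other side of the shared promoter region shown above, differed by -0.15 (interval -0.27 to -0.04), and by -0.16 at a second probe set. Acadl, the long-chain dehydrogenase, differed by -0.11 (interval -0.24 to 0.02).

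Medium- and short-chain steps were lower in mean in 6 of 6 genes. Acaa2, the mitochondrial thiolase, read 12.48, 12.65, 12.49 and 12.75 in Ezh2-deficient hearts, against 12.81, 12.999, 12.97, 12.82 and 13.04 in wild-type hearts. No Ezh2-deficient heart reached the wild-type range (difference -0.33, SE 0.07, limma adjusted p = 0.152). Hadh, the hydroxyacyl-CoA dehydrogenase, read 12.52, 12.63, 12.54 and 12.71 in Ezh2-deficient hearts, against 12.74, 12.82, 12.85, 12.80 and 12.88 in wild-type hearts. The nearest hearts were 0.03 apart, and the difference was -0.22 (SE 0.05, limma adjusted p = 0.188). Echs1, the short-chain enoyl-CoA hydratase, was separate as well (-0.23). Acadm, the medium-chain dehydrogenase, differed by -0.19, Hsd17b10, a short-chain hydroxyacyl-CoA dehydrogenase, by -0.17, and Acads, the short-chain dehydrogenase, by -0.14, with overlap in all 3. Medians were -0.20 for this step and -0.19 for the long-chain step.

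**Figure D4:**
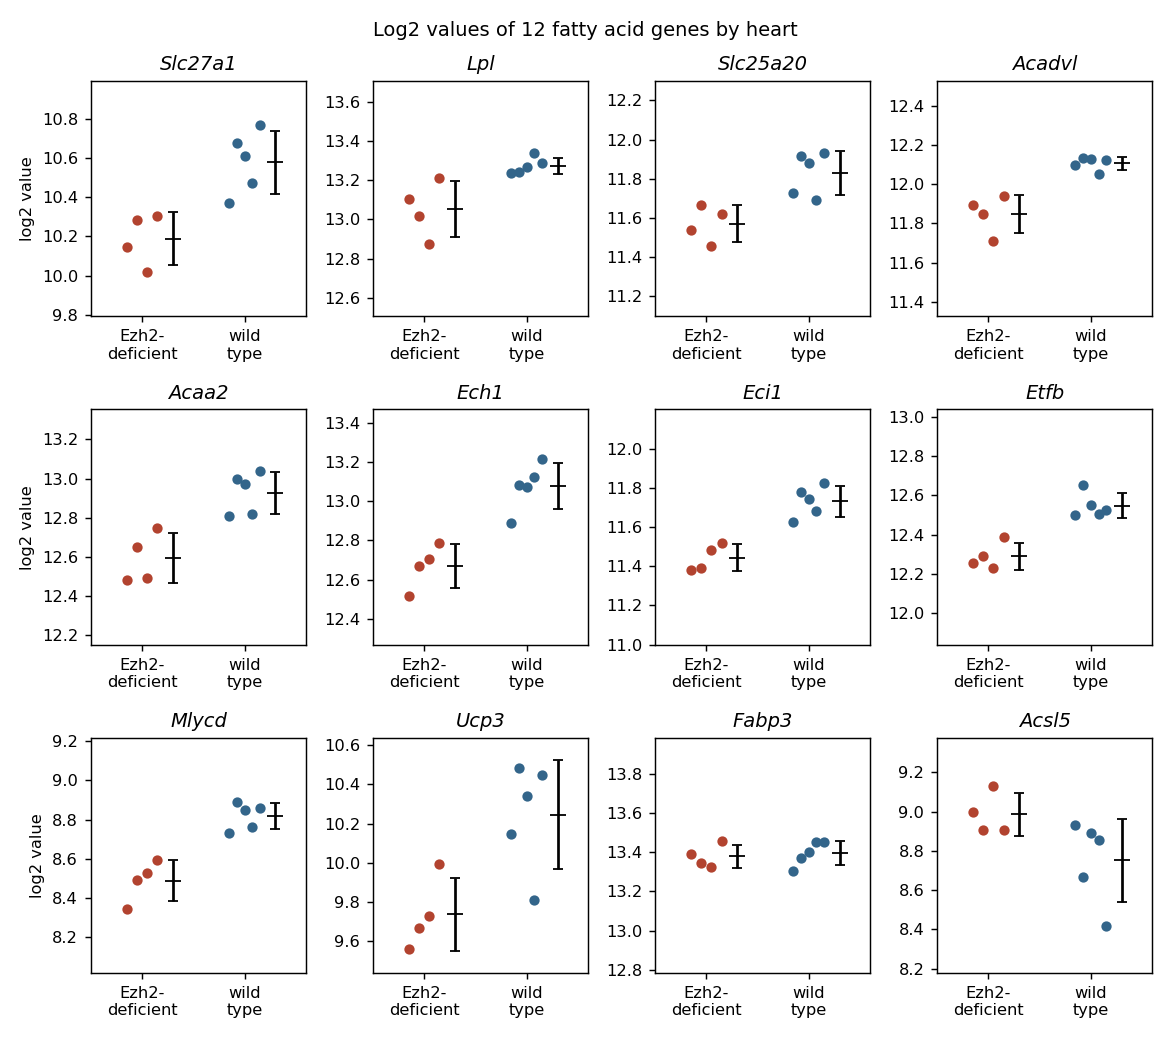
Log2 values of 12 of the genes in the 4 Ezh2-deficient and 5 wild-type hearts, 1 point per heart, with the mean and SD beside each group and the same span on every vertical axis. The groups are separate in 9 of the panels and overlap at Ucp3, Fabp3 and Acsl5. The 12 genes were picked for display and do not stand for the list. Of all 37 genes 17 were lower without overlap, as were 2.19% of all genes on the array.

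The auxiliary enzymes for unsaturated fatty acids were lower without overlap in 4 of 4 genes. Such separation held for 2.19% of all genes and 8.58% of genes with a mean of at least 10. Ech1, a dienoyl-CoA isomerase, read 12.52, 12.67, 12.71 and 12.79 in Ezh2-deficient hearts, against 12.89, 13.08, 13.07, 13.12 and 13.22 in wild-type hearts. It averaged 12.67 ± 0.11 (SD, n = 4) and 13.08 ± 0.12 (SD, n = 5) in these groups, a difference of -0.41, or 75.4% of the wild-type level (SE 0.07, limma adjusted p = 0.121). Eci1, an enoyl-CoA isomerase, read 11.38, 11.39, 11.48 and 11.52 in Ezh2-deficient hearts, against 11.63, 11.78, 11.74, 11.68 and 11.82 in wild-type hearts. Again the highest Ezh2-deficient value lay below the lowest wild-type value (difference -0.29, SE 0.05, limma adjusted p = 0.125). Decr1, the mitochondrial dienoyl-CoA reductase, differed by -0.37 and Eci2, a further isomerase, by -0.29. The median of the step was -0.33. The promoter windows of Ech1, Eci1 and Eci2 held no AGGTCA match in these 300 bases, and Decr1 had no window. Only 16.3% of all windows held a match, so its absence here is the common case.

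Electron transfer genes were lower without overlap in 3 of 3. The same was true of 2.19% of all genes and 8.58% of genes with a mean of at least 10. Etfb, the beta subunit of the electron transfer flavoprotein, read 12.25, 12.29, 12.23 and 12.39 in Ezh2-deficient hearts, against 12.50, 12.65, 12.55, 12.51 and 12.53 in wild-type hearts. Its lowest wild-type value lay 0.11 above the highest Ezh2-deficient one (difference -0.26, SE 0.05, limma adjusted p = 0.128). Etfa, the alpha subunit, read 12.12, 12.09, 12.12 and 12.12 in Ezh2-deficient hearts, against 12.21, 12.27, 12.34, 12.44 and 12.49 in wild-type hearts. The Ezh2-deficient values were nearly equal, while wild-type hearts 4 and 5 were highest (difference -0.24, SE 0.06, limma adjusted p = 0.213). Etfdh, which passes the electrons to ubiquinone, differed by -0.20. The 2 subunits and the oxidoreductase thus differed by similar amounts, with a median of -0.24.

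Among peroxisomal enzymes the pair differed in size. Ehhadh, the bifunctional enzyme, read 8.02, 8.09, 7.94 and 8.23 in Ezh2-deficient hearts, against 8.26, 8.35, 8.44, 8.27 and 8.55 in wild-type hearts. It did not overlap (difference -0.30, SE 0.08, limma adjusted p = 0.213). Acaa1a, a peroxisomal thiolase, read 8.31, 8.49, 8.44 and 8.39 in Ezh2-deficient hearts, against 8.47, 8.56, 8.42, 8.42 and 8.42 in wild-type hearts. Its groups overlapped (difference -0.05, interval -0.16 to 0.06).

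The acyl-CoA dehydrogenase family members Acad11 and Acad10 both overlapped. Acad11 read 10.47, 10.64, 10.38 and 10.57 in Ezh2-deficient hearts, against 10.58, 10.66, 10.77, 10.75 and 10.85 in wild-type hearts, a difference of -0.21 (SE 0.07, limma adjusted p = 0.332). Only Ezh2-deficient heart 2 lay within the wild-type range there. Acad10 read 7.03, 7.07, 6.93 and 7.07 in Ezh2-deficient hearts, against 6.87, 7.02, 7.23, 7.07 and 7.26 in wild-type hearts. All its Ezh2-deficient values lay within the wild-type range (difference -0.07, interval -0.24 to 0.11).

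Malonyl-CoA blocks entry of long chains into mitochondria, and the genes on both sides of its balance were lower in mean. Mlycd, the decarboxylase that removes it, read 8.34, 8.49, 8.53 and 8.59 in Ezh2-deficient hearts, against 8.73, 8.89, 8.85, 8.76 and 8.86 in wild-type hearts. The gap between the groups was 0.14, and the difference was -0.33, or 79.6% of the wild-type level (SE 0.06, limma adjusted p = 0.12). Acacb, the acetyl-CoA carboxylase that makes malonyl-CoA at the mitochondrial surface, read 10.49, 10.46, 10.14 and 10.63 in Ezh2-deficient hearts, against 10.75, 10.87, 10.74, 10.63 and 10.72 in wild-type hearts. The groups met at 10.63 (difference -0.31, SE 0.09, limma adjusted p = 0.269). Enzyme activity and malonyl-CoA itself were not measured.

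Ucp3, a mitochondrial carrier of muscle whose expression follows fatty acid supply, had the largest difference of the 37 genes. It read 9.56, 9.67, 9.73 and 9.997 in Ezh2-deficient hearts, against 10.15, 10.48, 10.34, 9.81 and 10.45 in wild-type hearts. The averages were 9.74 ± 0.19 (SD, n = 4) and 10.25 ± 0.28 (SD, n = 5) in these groups, a difference of -0.51, or 70.3% of the wild-type level (SE 0.14, limma adjusted p = 0.252). Wild-type heart 4 alone lay within the Ezh2-deficient range. The interval of -0.82 to -0.19 was the widest of the 37, and with the level of Y-linked genes as a covariate the difference was -0.41.

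**Figure D5:**
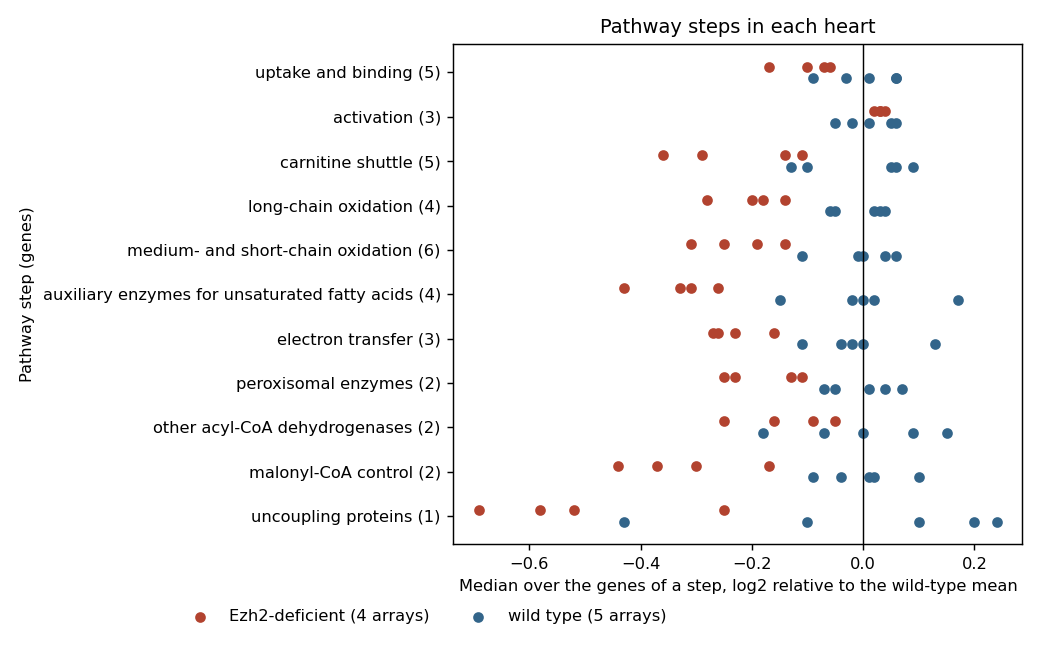
Each point is 1 heart's median over the genes of a step (number of genes in brackets), on the log2 scale relative to the wild-type mean. Ezh2-deficient hearts lie to the left of all wild-type hearts in the long-chain, medium- and short-chain, auxiliary, electron transfer, peroxisomal and malonyl-CoA steps, and overlap them in the uptake, activation, carnitine and other dehydrogenase steps and at Ucp3.

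Set side by side, the medians of the difference by step were -0.12 for uptake, 0.03 for activation, -0.26 for the carnitine shuttle, -0.19 for long chains, -0.20 for medium and short chains, -0.33 for the auxiliary enzymes and -0.24 for electron transfer. They were -0.18 for the 2 peroxisomal genes, -0.14 for the 2 other dehydrogenases, -0.32 for the 2 malonyl-CoA genes and -0.51 for Ucp3. No difference between steps was tested, and with 1 to 6 genes a step the order is a description. Sample titles hold an e or an x, of unstated meaning, and both letters occur in either group. Within letter e (2 Ezh2-deficient and 2 wild-type hearts) 32 of the 37 genes had a lower mean and the median difference was -0.16. Within letter x (2 and 3 hearts) 33 had a lower mean, with a median of -0.28. The auxiliary enzymes had medians of -0.27 and -0.40 within the 2 letters, and the electron transfer genes -0.12 and -0.29.

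Further genes of fatty acid handling and of related acyl-CoA steps, such as Acad8, Acadsb and Hibch of branched-chain amino acid breakdown, were taken as a second list. Of its 48 genes 45 were measured. In limma's test 0 of the 45 passed, where 0.0347% of all probe sets did. A lower mean was found in 35, against 51.6% of all genes. At an unadjusted p under 0.05, 12 were lower, against 5.78% of all genes, and 2 higher, against 5.77%. The median difference was -0.09, against -0.003 over all genes. In 5 of the 45 every Ezh2-deficient heart read below every wild-type heart, which held for 2.19% of all genes. The 6 with the smallest p were Hsdl2 (-0.31), a peroxisomal dehydrogenase-like protein, Vldlr (-0.22), the receptor for very low density lipoprotein, Abcd3 (-0.27), a peroxisomal membrane transporter, Fabp5 (0.42), a fatty acid binding protein, Echdc3 (-0.16), an enoyl-CoA hydratase domain protein, and Acat1 (-0.21), the mitochondrial acetoacetyl-CoA thiolase. Fabp5 averaged 9.40 ± 0.20 (SD, n = 4) in Ezh2-deficient and 8.98 ± 0.24 (SD, n = 5) in wild-type hearts. Among the 6 named, groups of Hsdl2, Vldlr, Abcd3 and Echdc3 did not overlap, whereas those of Fabp5 and Acat1 did.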

How the data were processed

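RNA of 9 hearts was hybridised to Affymetrix arrays, 1 per heart. The deposited table holds log2 values, 1 per probe set and array, which per the submitters' processing notes come from RMA in Affymetrix Power Tools, with no version or setting given there. The log2 scale was read from the range of the values, 2.18 to 15.0, and the method's name. The table has no detection calls, and the number of arrays limits the precision (median standard error 0.0674).

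Groups follow the description labels. The labels speak of separate mice, and replicate numbers follow sample order and pair nothing. Of 28815 probe sets 21780 had 1 symbol in the platform annotation, updated through gene identifiers, 1605 had several and 5430 had none. The test was limma 3.58.1 in R 4.3.3 (lmFit and eBayes with genotype alone), two-sided, with Benjamini-Hochberg adjusted p over the whole table and a threshold of 0.05. It was also run on simulated data, in which the planted differences were larger than most of those reported here. That run therefore does not show how often differences of the size reported here would pass. The genes and lists were chosen with earlier results of these data known. Values per heart are given for the 2 genes with the smallest p in each step and for genes with a higher mean. Alternatives were 2 scalings, arrays left out, title letter, Y-linked mean, dim probe sets left out, array weights, another prior and averaged probe sets.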

Additional observations from a re-analysis of the deposited data

Results flagged for a closer look

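One value stood far from the others of its group. Cpt1a in Ezh2-deficient heart 1 read 9.64, whereas the nearest of the other 3 Ezh2-deficient hearts read 9.77, a gap of 0.899 of the group's range. Dixon's criterion was applied to 74 groups of values, and chance alone marks about 1 in 20 of them.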

How the results depend on the processing

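Over 21 alternative settings 0 of the 37 genes passed by limma in any of them, and the lowest adjusted p of a gene was 0.0614 (that of Eci1). Leaving out each heart in turn gave 33 to 35 genes with a lower mean, 25 to 28 lower at an unadjusted p under 0.05, 17 to 22 lower without overlap and a median of -0.26 to -0.20, where 4.26% to 6.64% of all genes were lower at that p and 2.5% to 3.86% lower without overlap. With a further quantile normalization 12 genes, against 17 as reported, were lower without overlap (2.78% of all genes). Within title letter e, 7 genes were lower at an unadjusted p under 0.05 (4.02% of all genes) and 27 were lower without overlap (20.4%), and within letter x 26 were lower without overlap (13.9%), with 4 and 5 hearts in all. Of 775 values of single genes 9 had the opposite sign, all of genes far from the threshold. These were Fabp3 within letter e (0.085), with array weights (0.017), without wild-type hearts 4 and 5 (0.019), without those and Ezh2-deficient heart 3 (0.037) and without Ezh2-deficient heart 3 alone (0.0004, the highest of -0.0439 to 0.0004 over the hearts left out), Acad10 within letter e (0.102) and without the 3 hearts (0.015), Acsl6 without wild-type heart 1 (-0.001, the lowest of -0.001 to 0.046) and Acaa1a within letter x (0.046). Step medians that moved by more than the spread between hearts were uptake (-0.0595 within letter e, -0.0397 without wild-type hearts 4 and 5, -0.0583 without the 3 hearts), long-chain oxidation (-0.12 within letter e, -0.25 within letter x), electron transfer (-0.12 within letter e, -0.16 without the 3 hearts) and the other dehydrogenases (0 within letter e); the cause was not tested. The setting without the 3 hearts was chosen after seeing the data. No paired analysis was possible because the replicate numbers follow the order of the samples. A comparison of Cpt1b with Cpt1a was not run, since Cpt1b has no probe set with a single symbol.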
